A study of Homo sapiens with 9 samples.

Results

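10 genes for secreted plasma proteins were followed in a liver cancer cell line treated with quercetin: ALB (serum albumin), AFP (alpha-fetoprotein), TTR (transthyretin), AHSG (alpha-2-HS-glycoprotein, or fetuin-A), SERPINA1 (alpha-1-antitrypsin), RBP4 (retinol-binding protein 4), HP (haptoglobin), HPX (hemopexin), AMBP (the precursor of alpha-1-microglobulin and bikunin) and ORM1 (orosomucoid 1). They were chosen by gene symbol, and all 10 were found among the 17492 genes of the deposited table. Of these 10 genes, 7 had enough reads for a test (ALB, AFP, TTR, AHSG, SERPINA1, AMBP and ORM1), and 3 were too low to test (RBP4, HP and HPX). The cells were HCCLM3, an established line of human hepatocellular carcinoma that the labels call highly metastatic and give the genotype WT, and their RNA was sequenced in 9 libraries. The 9 libraries fell into groups of 3 each: cells given the vehicle DMSO (control), cells given quercetin at 50 µM, and cells given quercetin at 100 µM. Quercetin is a plant flavonol, and the series asks how it acts on this cancer. The sources used here do not give the length of the treatment, all groups are of 1 line, and the labels do not tell whether replicates were separate cultures, so p-values reflect the spread among these libraries, which may be technical.

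Most plasma proteins are made and secreted by hepatocytes, where transcription factors of the HNF1, HNF4, FOXA and C/EBP families act together at compact promoters and at distant enhancers. Albumin is the main carrier and osmotic protein of adult plasma, and AFP, its paralog and neighbour on the same chromosome, is its fetal counterpart, silenced after birth and often made again by hepatocellular carcinomas, for which it serves as a blood marker. During inflammation, interleukin-6 and interleukin-1 raise the positive acute phase proteins, among them haptoglobin, hemopexin, orosomucoid and alpha-1-antitrypsin, while the negative ones, among them albumin, transthyretin, RBP4 and fetuin-A, decline.

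The libraries held 20061031 to 21599661 estimated counts, summed over all genes. Of these genes, 12832 were tested and 4660 were left out for low counts. Within groups, 2 libraries stood apart. Control replicate 1 differed from control replicates 2 and 3 by a root mean square of 0.361 and 0.372 on the log2 CPM scale (CPM, counts scaled to the size of the library), while replicates 2 and 3 differed by 0.199. At 100 µM, replicate 3 differed from replicates 1 and 2 by 0.530 and 0.535, while replicates 1 and 2 differed by 0.202. The 50 µM libraries differed from each other by 0.197 to 0.200. The results of the 10 genes are therefore also given without these 2 libraries where this changed a call. The 2 libraries were picked by their distance in these same data. Leaving them out narrows the spread, so p-values without them are descriptions. The epithelial keratin genes KRT8 and KRT18 were among the abundant transcripts, at 1008 to 4497 TPM (transcript level scaled to library size and gene length) in all 9 libraries. The list of epithelial genes checked also held EPCAM and CDH1, and 3 of its 4 genes could be tested. Of 19 hepatocyte genes checked, 12 could be tested. APOA1 (an apolipoprotein), CPS1 (a urea cycle enzyme) and the cytochrome P450 genes CYP2E1 and CYP3A4, all abundant in adult liver, did not exceed 0.50 TPM in any library.

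The promoters of ALB, AFP and SERPINA1 are shown first, because they belong to the member with the largest called increase, its neighbour and paralog that passed no test, and the member with the largest called decrease. Each covers 300 bases around the transcription start, the last 50 of them after it, and comes from RefSeq (GRCh38.p14): ALB at chr4:73404037-73404336 on the plus strand, AFP at chr4:73435971-73436270 on the plus strand, and SERPINA1 (the first of its 2 listed promoters) at chr14:94388553-94388852 on the minus strand. Capitals mark the hexamer GTTAAT, the core of the motif bound by the HNF1 family of transcription factors.
ALB: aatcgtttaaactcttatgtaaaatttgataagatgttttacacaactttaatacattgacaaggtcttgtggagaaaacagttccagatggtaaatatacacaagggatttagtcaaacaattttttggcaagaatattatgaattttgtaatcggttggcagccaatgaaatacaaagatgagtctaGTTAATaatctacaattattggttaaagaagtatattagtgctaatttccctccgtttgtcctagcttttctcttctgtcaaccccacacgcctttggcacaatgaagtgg
AFP: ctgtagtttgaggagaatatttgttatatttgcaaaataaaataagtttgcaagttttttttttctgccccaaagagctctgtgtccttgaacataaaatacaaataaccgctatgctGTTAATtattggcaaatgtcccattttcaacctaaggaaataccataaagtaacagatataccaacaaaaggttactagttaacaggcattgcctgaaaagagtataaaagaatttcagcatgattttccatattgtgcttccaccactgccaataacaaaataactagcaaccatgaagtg
SERPINA1: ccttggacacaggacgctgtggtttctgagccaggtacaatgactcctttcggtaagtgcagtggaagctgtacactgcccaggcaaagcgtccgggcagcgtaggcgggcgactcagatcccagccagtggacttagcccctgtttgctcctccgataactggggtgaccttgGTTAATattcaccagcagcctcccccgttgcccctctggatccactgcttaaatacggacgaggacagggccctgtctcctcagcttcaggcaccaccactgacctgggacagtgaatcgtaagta
The hexamer lay at positions -61 to -56 from the start in ALB, at -132 to -127 in AFP and at -76 to -71 in SERPINA1. All 3 genes carried it on the coding strand. RefSeq promoters were found for 8 of the 10 members, 11 promoters in all, and these 3 members were the ones of the 8 with the hexamer on either strand. Among all 35116 RefSeq promoters of this length, 6.88% held it. The C/EBP motif TTGCNNAA was found in 5 of the 11 promoters (of ALB, AFP, AHSG, RBP4 and HPX), against 10.5% of all promoters. The HNF4 motif CAAAGTCCA was found in AHSG, at -179 to -171 on the opposite strand, and in 0.384% of all promoters. The TATA box TATAAA stood at -29 to -24 in both AFP and ORM1, was also found in RBP4, and was held by 11.5% of all promoters. The FOXA motif TGTTTAC was in none of these 11 promoters and in 3.42% of all. All motifs were searched on both strands, and no 2 matches of different motifs overlapped in these promoters. Such matches describe letters in a window and are not evidence of binding. The relation of the hexamer to the levels of ALB, AFP and SERPINA1 under quercetin was not tested.

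All 10 genes were low in HCCLM3. In control cells, AMBP had the highest mean level, 7.78 ± 0.225 TPM (SD, n = 3), which was rank 8937 of 17492 genes. AFP followed with 4.82 ± 0.810 TPM, and the ranges of these 2 genes did not overlap with each other or with the gene below. ORM1 (2.24 ± 0.765 TPM), ALB (1.19 ± 0.696 TPM), SERPINA1 (0.917 ± 0.287 TPM), RBP4 (0.533 ± 0.228 TPM), TTR (0.417 ± 0.266 TPM) and AHSG (0.407 ± 0.256 TPM) came next, each overlapping with its neighbour in this order. HP and HPX were last, at 0 to 0.08 TPM. With quercetin the order changed at the top: ALB led at 50 µM with 8.12 ± 2.17 TPM, overlapping with AMBP, and at 100 µM with 9.41 ± 3.96 TPM, above the whole range of AFP, the next gene. The summed TPM of the 10 genes was 19.85, 17.98 and 17.22 in the control libraries, 22.26, 24.59 and 26.86 at 50 µM, and 22.51, 23.82 and 30.09 at 100 µM. Every quercetin library was thus above every control library in this sum. The share of ALB was also higher in each quercetin library, so the sum does not show that the other genes rose with it. ALB made up 10.0%, 4.51% and 4.41% of this sum in the control libraries, 25.2%, 37.3% and 35.6% at 50 µM, and 29.9%, 31.7% and 46.4% at 100 µM. In these bulk libraries, a change in RNA per cell and a change in the share of cells that hold the RNA cannot be told apart.

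**Figure D1:**
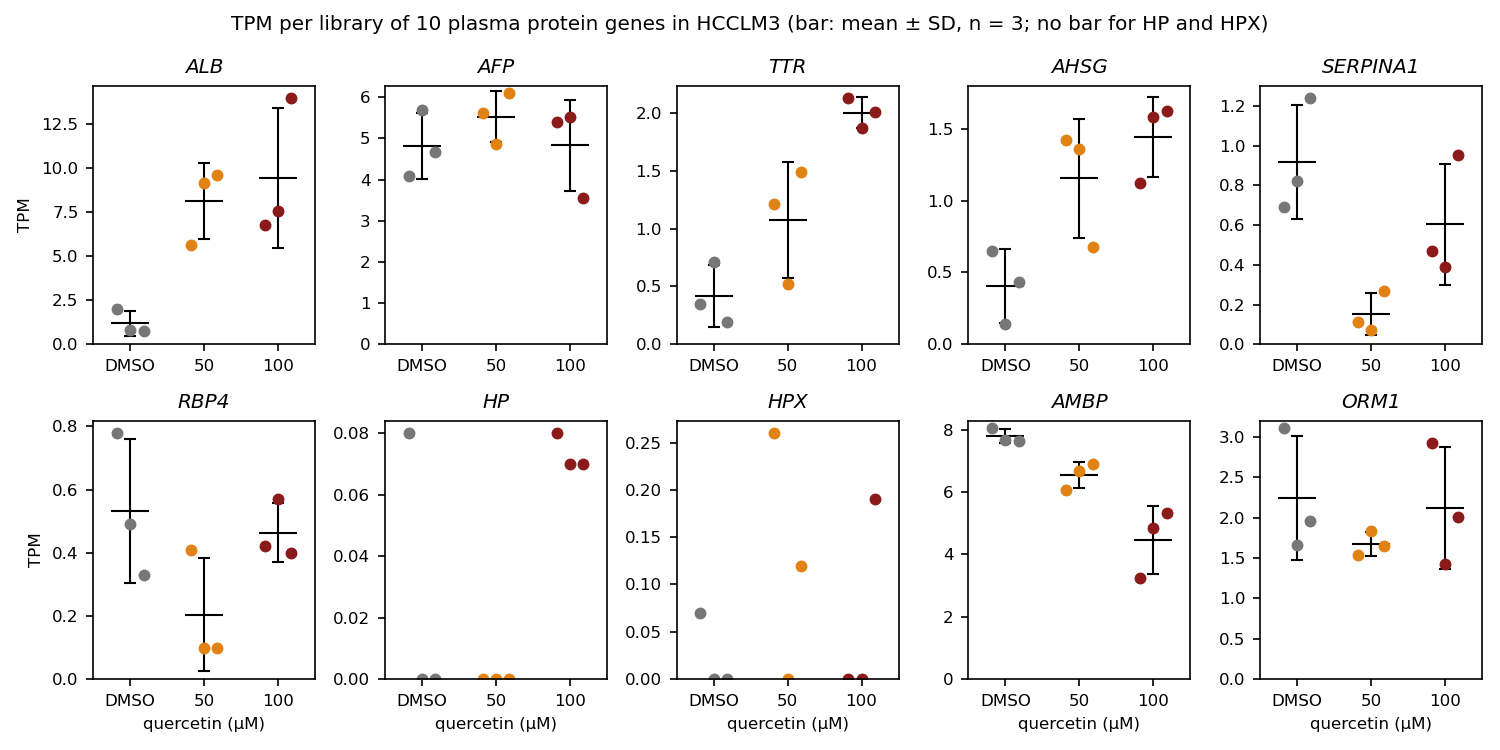
Level of each of the 10 genes in TPM (vertical axis, a separate linear scale from 0 for each gene) in the DMSO, 50 µM and 100 µM libraries; points are libraries, and bars give the mean ± SD of 3 libraries, left out for HP and HPX because libraries were at 0. ALB was higher in all 6 quercetin libraries than in all 3 control libraries, AFP overlapped in all groups, and SERPINA1 was lowest at 50 µM.

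The test was edgeR's quasi-likelihood F test on the deposited counts, with the p-value adjusted by the Benjamini-Hochberg method over all 12832 genes, and a gene was called at an adjusted p under 0.05. At 50 µM against control, ALB rose and SERPINA1 fell, and the other 5 of the 7 tested members did not pass. Over all tested genes 11.6% were called, 5.28% higher and 6.31% lower. At 100 µM against control, ALB, TTR and AHSG rose and AMBP fell, and SERPINA1, AFP and ORM1 did not pass. There 21% of all tested genes were called, 10.7% higher and 10.3% lower. Between 100 µM and 50 µM none of the 7 passed in edgeR, and 2 had an unadjusted p under 0.05. In DESeq2, 0 passed of the 5 that received an adjusted p there, which TTR and SERPINA1 did not. There 4.15% of all tested genes were called, 2.25% higher and 1.89% lower. The CPM of the groups did not overlap for 4 of the 7 tested members at 50 µM against control, where this held for 49% of all tested genes. It did not overlap for 4 at 100 µM against control (36% of all tested genes) and for 3 at 100 µM against 50 µM (27.7%). The median log2 fold change of the 7 was 0.26 at 50 µM against control, 0.06 at 100 µM against control and 0.35 at 100 µM against 50 µM, against 0.0033, 0.00087 and 0.012 over all tested genes. These counts and medians leave out RBP4, HP and HPX, so they do not describe all 10 members. TTR passed the filter on low counts through the 3 libraries at 100 µM alone. AHSG reached 10 counts in quercetin libraries alone, and SERPINA1 reached 10 counts in no 50 µM library. Without control replicate 1 and 100 µM replicate 3, the calls became 3 at 50 µM against control, 5 at 100 µM against control and 2 at 100 µM against 50 µM.

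**Figure D2:**
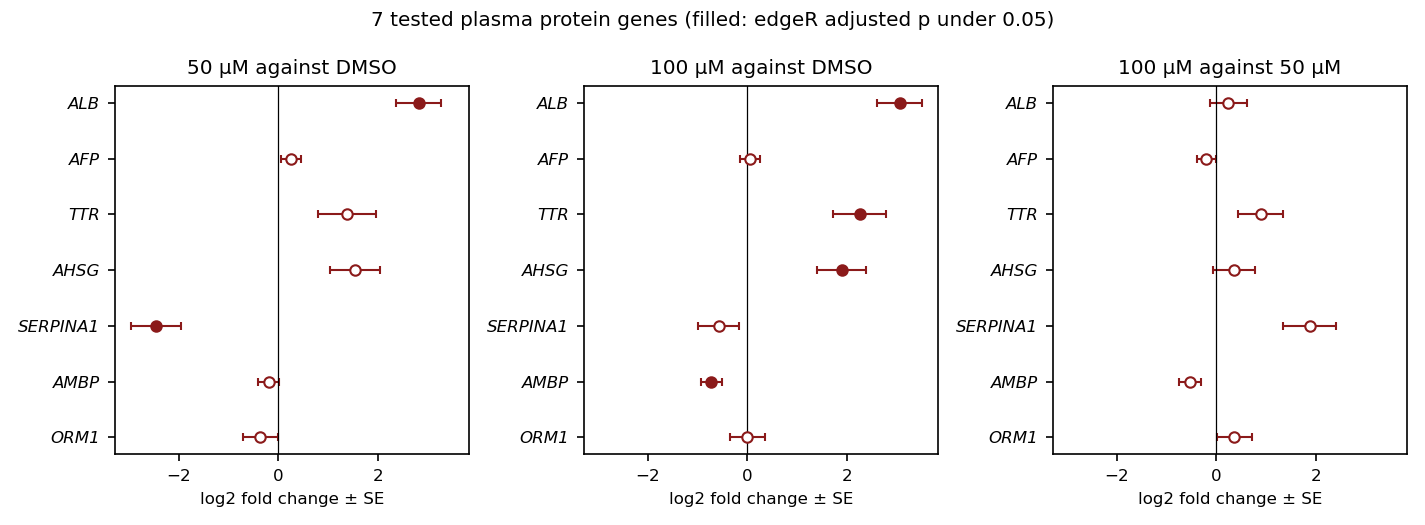
Log2 fold change ± SE (horizontal axis) of the 7 tested genes in the 3 comparisons, from edgeR; filled points passed at an adjusted p under 0.05. ALB stood at 2.82 and 3.06 against DMSO and at 0.24 between the doses, while SERPINA1 stood at -2.45, -0.58 and 1.88.

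ALB, the carrier of fatty acids, hormones and drugs in plasma, was the member with the largest rise. Its gene (213) lies on chromosome 4, from 73397114 to 73421482 in the deposited table. The libraries held 44.69, 18 and 16 estimated counts in control cells, 127.98, 209.67 and 228 at 50 µM, and 149.43, 175 and 328.96 at 100 µM. All 6 quercetin libraries were above the highest control library, and the 2 doses overlapped. Within the control group, replicate 1 was the high one, and at 100 µM replicate 3 was the high one. At 50 µM against control ALB rose 7.05-fold (log2 fold change 2.82 ± 0.446 SE, edgeR adjusted p = 0.00982). At 100 µM against control it rose 8.34-fold (3.06 ± 0.446, edgeR adjusted p = 0.00237). The difference of 0.24 ± 0.378 between 100 µM and 50 µM did not pass (edgeR adjusted p = 0.763), and it was -0.22 without 100 µM replicate 3. The authors' deposited table gives ALB a log2 fold change of 2.84 (q = 3.08e-14) at 50 µM and 3.09 (q = 2.23e-09) at 100 µM. At 50 µM the ALB call did not survive the omission of control replicate 2 (edgeR adjusted p = 0.0629), of control replicate 3 (0.0576) or of 50 µM replicate 3 (0.0568), while that at 100 µM was kept in each of the 9 omissions of a library. Without control replicate 1 alone, the log2 fold change of ALB was 3.41 at 50 µM and 3.65 at 100 µM. Without both libraries that stood apart the ALB value was 3.40 at 50 µM (edgeR adjusted p = 1.65e-07) and 3.19 at 100 µM (1.15e-06).

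AFP, the fetal albumin-like carrier, did not pass in any comparison. Its gene (174, chromosome 4, 73431159 to 73462519) starts 9677 bases after the end of ALB in the deposited table. AFP had 92, 125.98 and 97.98 counts in control libraries, 127.84, 112.47 and 145.01 at 50 µM, and 120, 128 and 84 at 100 µM. These 3 ranges overlapped. The log2 fold change of AFP was 0.26 ± 0.195 SE at 50 µM (edgeR adjusted p = 0.380) and 0.06 ± 0.196 at 100 µM (adjusted p = 0.850), and it was -0.20 ± 0.194 between 100 µM and 50 µM (adjusted p = 0.600). The standard error of AFP was smaller than that of ALB in each comparison. In TPM, AFP and ALB changed places. The ratio of AFP to ALB TPM was 2.06, 7.02 and 6.14 in control libraries, 1, 0.532 and 0.636 at 50 µM, and 0.802, 0.732 and 0.255 at 100 µM. AFP was thus at or below ALB in the 6 quercetin libraries and above it in the 3 control libraries, and the ratio did not overlap between control and either dose. Over the 9 libraries AFP kept within 3.56 to 6.09 TPM, while ALB ran from 0.76 to 13.96 TPM.

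**Figure D3:**
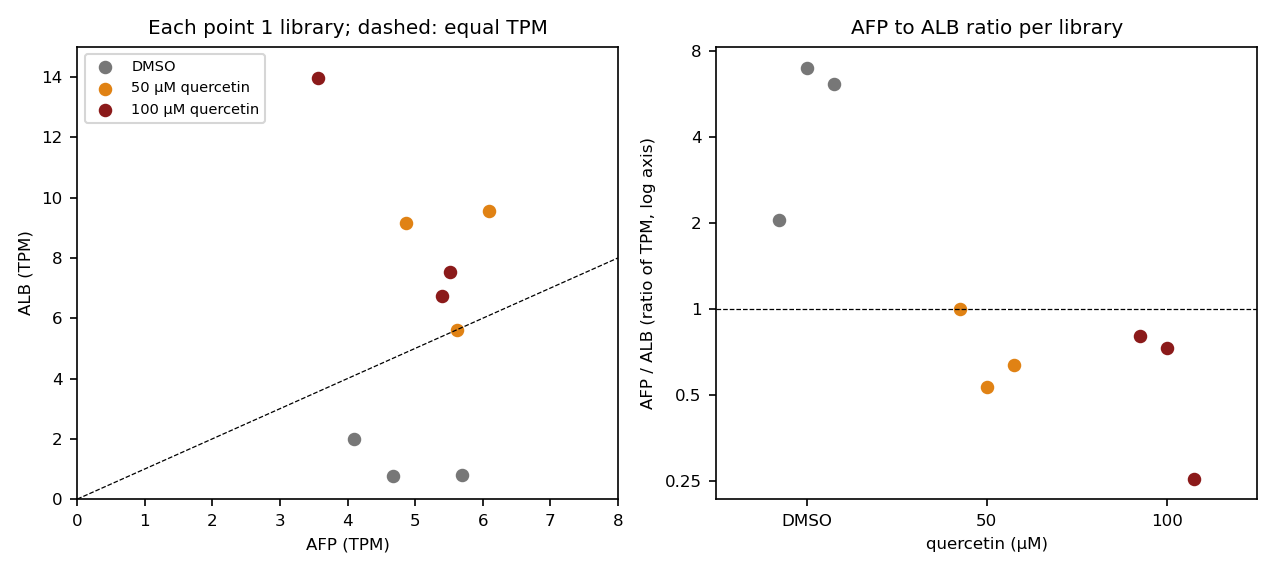
Left, ALB against AFP in TPM, each point 1 of 9 libraries, with the dashed line at equal TPM; right, the ratio of AFP to ALB TPM per library on a log axis, by dose. The quercetin libraries lie on or above the line at ratios of 0.255 to 1, and the control libraries lie below it at ratios of 2.06 to 7.02.

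AFM and GC, the other members of the albumin gene family on chromosome 4, were too low to test. AFM, which encodes afamin, a vitamin E-binding glycoprotein, had 3, 1 and 1 counts in control libraries, 8, 2 and 7 at 50 µM, and 3, 3 and 6 at 100 µM. GC, which encodes the vitamin D-binding protein, had 0 counts in all control and 50 µM libraries and 0, 1 and 2 at 100 µM; a count of 0 in a group allows a level of up to 0.0474 CPM at 50 µM and 0.0479 CPM in control. Within 250000 bases of ALB, 2 further genes were tested. ANKRD17, an ankyrin repeat gene, was lower at 50 µM (log2 fold change -0.30, edgeR adjusted p = 0.0361) and at 100 µM (-0.39, adjusted p = 0.00859). RASSF6, a Ras-association domain gene, was lower at 50 µM (-0.68, adjusted p = 0.0188) and was at -0.11 at 100 µM (adjusted p = 0.609). The rise of ALB was thus not matched by a called rise of any tested gene within this distance.

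**Figure D4:**
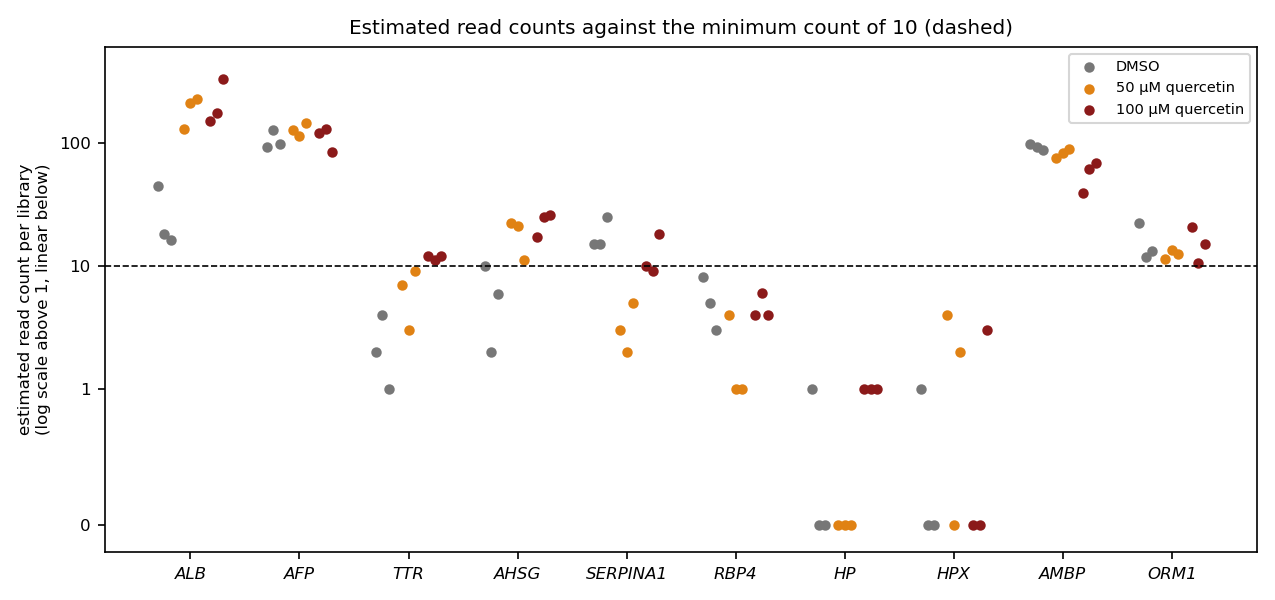
Estimated read counts of each gene in each library (vertical axis, log scale above 1 and linear below) by group, with the minimum count of 10 as a dashed line. ALB, AFP, AMBP and ORM1 were above the line in all 9 libraries, RBP4, HP and HPX were below it in all 9, and TTR, AHSG and SERPINA1 crossed it.

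TTR and RBP4 form the carrier complex of retinol in plasma, and TTR also carries thyroid hormone. TTR (gene 7276, chromosome 18, 31591877 to 31598821) had 2, 4 and 1 counts in control libraries, 7, 3 and 9 at 50 µM, and 12, 11 and 12 at 100 µM. The 100 µM libraries were above all the others, and the 50 µM libraries overlapped with the control. TTR rose 4.80-fold at 100 µM against control (log2 fold change 2.26 ± 0.533 SE, edgeR adjusted p = 0.0172), and at 50 µM the value was 1.37 ± 0.581 (adjusted p = 0.138). The step from 50 to 100 µM, 0.89 ± 0.450, did not pass (adjusted p = 0.286). A total of 35 counts at 100 µM (exact Poisson 95% interval 24.4 to 48.7) stood against 7 in control (2.81 to 14.4), and these intervals cover counting error only. Since TTR was tested only because of its 100 µM libraries, it was also fitted with no filter on low counts, where the edgeR adjusted p was 0.0247. The authors' deposited table gives TTR 2.33 at 100 µM with q = 0.0670, and the TTR call depended on control replicate 3 (without it the log2 fold change was 1.96, edgeR adjusted p = 0.0742); without control replicate 2 the log2 fold change was 2.86.

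RBP4 (gene 5950, chromosome 10, 93591694 to 93601744) had 8, 5 and 3 counts in control libraries, 4, 1 and 1 at 50 µM, and 4, 6 and 4 at 100 µM. All groups overlapped. No library reached 10 counts, so a difference was not detectable at this depth. In the fit with no filter RBP4 did not pass (edgeR adjusted p of 0.241, 0.867 and 0.435 in the 3 comparisons).

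AHSG, whose protein fetuin-A binds calcium phosphate and inhibits the insulin receptor, was the third member that rose at 100 µM. It lies on chromosome 3 (gene 197, 186590147 to 186635794). AHSG had 9.99, 2 and 5.88 counts in control libraries, 22, 20.98 and 11 at 50 µM, and 17, 25 and 25.97 at 100 µM. Every quercetin library was above every control library, and the doses overlapped. AHSG rose 3.72-fold at 100 µM against control (log2 fold change 1.90 ± 0.489 SE, edgeR adjusted p = 0.0240). No control library reached 10 counts, so AHSG passed the filter on low counts through its quercetin libraries, where it was high. In the fit with no filter, the edgeR adjusted p at 100 µM against control was 0.0277. At 50 µM the value of 1.54 ± 0.499 missed the threshold (adjusted p = 0.0693). The difference of 0.35 between 100 µM and 50 µM did not pass (adjusted p = 0.681). The AHSG call at 100 µM did not survive the omission of control replicate 2 (edgeR adjusted p = 0.0784), of control replicate 3 (0.0811) or of 100 µM replicate 2 (0.0574). The value at 50 µM passed without control replicate 1 (0.0343) or 100 µM replicate 3 (0.0295), and without both it was 2.08 (0.00149).

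SERPINA1, the main plasma inhibitor of neutrophil elastase, fell at 50 µM. The gene (5265) is given without a position, since the deposited table places it on a sequence outside the chromosomes. SERPINA1 had 15, 15 and 25 counts in control libraries, 3, 2 and 5 at 50 µM, and 10, 9 and 18 at 100 µM. The 50 µM libraries were below all the others, and the 100 µM libraries overlapped with the control. SERPINA1 thus passed the filter on low counts through its control and 100 µM libraries, where it was higher. In the fit with no filter, the edgeR adjusted p at 50 µM against control was 0.0197. At 50 µM against control SERPINA1 fell 5.47-fold (log2 fold change -2.45 ± 0.504 SE, edgeR adjusted p = 0.0188). At 100 µM against control the value was -0.58 ± 0.414 (adjusted p = 0.341). At 100 µM against 50 µM it was 1.88 ± 0.526, which missed the threshold (adjusted p = 0.0757), although the 3 libraries of each dose did not overlap. The authors' deposited table gives SERPINA1 -2.50 (q = 0.00526), -0.58 (q = 0.678) and 1.91 (q = 0.167) in these comparisons. The call at 50 µM was lost in 5 of the 9 omissions of a library: without control replicate 2 (0.0700) or 3 (0.0890), or without 50 µM replicate 1 (0.0847), 2 (0.0759) or 3 (0.0754), all edgeR adjusted p-values. Without both libraries that stood apart, SERPINA1 was lower at 50 µM against control (log2 fold change -2.60, adjusted p = 6.26e-05), lower at 100 µM against control (-1.12, adjusted p = 0.0409) and higher at 100 µM than at 50 µM (1.48, adjusted p = 0.0393).

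AMBP, whose product is cleaved into the radical-binding alpha-1-microglobulin and the protease inhibitor bikunin, was the member with the highest control level. Its gene (259) lies on chromosome 9 from 114060127 to 114078300. AMBP had 98, 92 and 87 counts in control libraries, 75, 83 and 89 at 50 µM, and 39.02, 61 and 68 at 100 µM. In TPM, the libraries were at 8.04, 7.66 and 7.64 in control, 6.07, 6.68 and 6.89 at 50 µM, and 3.24, 4.85 and 5.32 at 100 µM. The 3 groups did not overlap and were ordered by dose, with the lowest level at 100 µM. AMBP fell 1.65-fold at 100 µM against control (log2 fold change -0.72 ± 0.215 SE, edgeR adjusted p = 0.0408). At 50 µM against control the value was -0.19 ± 0.210 (adjusted p = 0.549), and at 100 µM against 50 µM it was -0.53 (adjusted p = 0.187). In 8 of the 9 omissions of a library the call at 100 µM was lost (edgeR adjusted p of 0.0645 without control replicate 1, 0.110 and 0.116 without control replicates 2 and 3, 0.0679 to 0.0697 without a 50 µM library, and 0.0812 and 0.0723 without 100 µM replicates 1 and 2). It was kept without 100 µM replicate 3, and without that replicate the difference between 100 µM and 50 µM also passed (-0.73, adjusted p = 0.0233). Without both libraries that stood apart, AMBP was at -0.89 at 100 µM against control (adjusted p = 0.000563) and at -0.71 at 100 µM against 50 µM (adjusted p = 0.00256). The authors' deposited table gives AMBP -0.72 with q = 0.101 at 100 µM against control.

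ORM1, HP and HPX encode acute phase proteins: ORM1 a lipocalin that binds drugs, HP the scavenger of free hemoglobin and HPX that of free heme. ORM1 (gene 5004, chromosome 9, 114323098 to 114326479) had 22.33, 11.74 and 13.18 counts in control libraries, 11.25, 13.39 and 12.54 at 50 µM, and 20.77, 10.59 and 15.12 at 100 µM. The 3 groups overlapped. Its log2 fold change was -0.36 ± 0.351 SE at 50 µM against control (edgeR adjusted p = 0.494), 0.00 ± 0.346 at 100 µM against control (0.997), and 0.36 at 100 µM against 50 µM (0.591). ORM2, the near-identical copy that starts 3390 bases after the end of ORM1, can share reads with it, and the fractional counts of both are estimates of that split. ORM2 had 8.67, 4.26 and 3.82 counts in control libraries, 12.68, 10.61 and 3.46 at 50 µM, and 14.23, 5.26 and 12.88 at 100 µM. It did not pass either (log2 fold change 0.64, 0.90 and 0.26, edgeR adjusted p of 0.498, 0.311 and 0.837 in the 3 comparisons in the same order). With ORM1 and ORM2 counts summed, the value was -0.02 at 50 µM against control and 0.31 at 100 µM against control, and neither passed (edgeR adjusted p of 0.979 and 0.580).

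HP (gene 3240, chromosome 16, 72054505 to 72061055) had 1, 0 and 0 counts in control libraries, 0 in each 50 µM library, and 1 in each 100 µM library. HPX (gene 3263, chromosome 11, 6431049 to 6441066) had 1, 0 and 0 counts in control libraries, 4, 0 and 2 at 50 µM, and 0, 0 and 3 at 100 µM. Both genes were at or near the floor, and no difference was detectable at this depth. The 0 counts of HP at 50 µM allow a level of up to 0.0474 CPM. HPR, the haptoglobin-related gene next to HP, was not analysed here.

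Read by their place in the acute phase, the members did not move as 1 group. Of 8 negative acute phase genes listed, 4 were tested. Of these, 2 rose at 50 µM (ALB and TF, transferrin, the iron carrier) and 4 at 100 µM (ALB, TTR, AHSG and TF), and 0 fell, where 5.28% and 10.7% of all tested genes rose. TTR could be tested only through its 100 µM libraries, and AHSG only through its quercetin libraries, where each was high. The calls of TTR and AHSG therefore add nothing to this count, and the 4 genes not tested have no call. TF, the one gene of the 4 that is not a member, was at 4.35, 1.85 and 1.77 TPM in control libraries, 13.17, 13.26 and 13.64 TPM at 50 µM, and 18.13, 20.21 and 13.30 TPM at 100 µM, and its call was kept in each of the 9 omissions at both doses. Of 21 positive acute phase genes, 11 were tested. At 50 µM against control, 2 rose (FGB, the fibrinogen beta chain, and CP, the copper carrier ceruloplasmin) and SERPINA1 fell. SERPINA1 could be tested only through libraries outside 50 µM, where it was higher, so its call adds nothing to this count. The CP and FGB calls at 50 µM were lost without control replicate 2 or 3 or any 50 µM library, with an edgeR adjusted p of up to 0.0950 for CP and 0.0852 for FGB. At 100 µM, 5 rose (FGA, FGB, CP, LRG1 and CFB) and 0 fell. Between 100 µM and 50 µM, LRG1, a leucine-rich glycoprotein, was the one of these genes that passed, and it was higher at 100 µM (log2 fold change 1.19 ± 0.218 SE, edgeR adjusted p = 0.0203). That LRG1 call was lost in 5 of 9 omissions: any 50 µM library, or 100 µM replicate 1 or 2, with an adjusted p of up to 0.122. CRP, the C-reactive protein gene, was not analysed here. Both directions of the acute phase thus held called increases, and ORM1, ORM2 and SERPINA3 of the positive list did not pass in any comparison.

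Among 44 further plasma protein genes, 16 were tested, and all called ones were higher; the list's median log2 fold change was 0.52 at 50 µM and 0.54 at 100 µM. At 50 µM these were ITIH2, TF, CP, BCHE and HABP2, and at 100 µM they were ITIH2, LRG1, TF, CP, AZGP1 and BCHE. HABP2 had 11, 6 and 4 counts in control libraries, 15, 18 and 20 at 50 µM, and 18, 15 and 13 at 100 µM. It passed the filter on low counts through its quercetin libraries, where it was high, so its call adds nothing to this count. AZGP1 was at 4.13, 2.32 and 3.2 TPM in control libraries and 4.8, 6.39 and 16.66 TPM at 100 µM. Replicate 3 was thus its high library at 100 µM, and libraries were not left out for AZGP1. Over all tested genes, 5.28% rose at 50 µM and 10.7% at 100 µM. The summed level of this list was 181 to 301 TPM in control libraries, 541 to 565 TPM at 50 µM, and 579 to 1182 TPM at 100 µM. ITIH2, a heavy chain of the inter-alpha-trypsin inhibitor that is coupled to the bikunin released from the AMBP product, made up most of this sum together with CP. ITIH2 was at 175.86, 120.65 and 127.85 TPM in control libraries, 280.55, 289.44 and 265.82 TPM at 50 µM, and 211.03, 205.43 and 183.22 TPM at 100 µM. ITIH2 rose at 50 µM (log2 fold change 1.04, edgeR adjusted p = 0.00372) and at 100 µM (0.57, adjusted p = 0.0117), while AMBP fell at 100 µM. CP was at 61.4, 21.05 and 18.76 TPM in control libraries, 215.33, 204.6 and 210.89 TPM at 50 µM, and 321.24, 296.92 and 912.72 TPM at 100 µM, so that replicate 3 alone gave the upper end of the summed level there. BCHE, which encodes butyrylcholinesterase, had a log2 fold change of 1.82 ± 0.492 SE at 50 µM (edgeR adjusted p = 0.0429) and 1.69 at 100 µM (adjusted p = 0.0385). The BCHE call at 50 µM was lost without control replicate 2 or 3, any 50 µM library or 100 µM replicate 2 (adjusted p up to 0.171), and that at 100 µM without control replicate 2 or 3, any 50 µM library or 100 µM replicate 3 (up to 0.135). Without 100 µM replicate 3 BCHE was at 1.07, and without control replicate 1 it was at 2.57 at 50 µM and 2.44 at 100 µM.

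Of the tested regulators of these genes, 2 of 24 were called at 50 µM, where 11.6% of all tested genes were, and 7 of 24 at 100 µM, where 21% were. Of 27 listed, 24 were tested, with a median log2 fold change of -0.03 at 50 µM and -0.0031 at 100 µM. At 50 µM against control 0 rose and 2 fell: HNF4A, the nuclear receptor that drives many hepatocyte genes, and GATA4. HNF4A was at 15.38, 19.94 and 21.23 TPM in control libraries, 9.58, 11.88 and 10.86 TPM at 50 µM, and 17.69, 17.24 and 10.26 TPM at 100 µM. The 50 µM libraries were below all control libraries (log2 fold change -0.75 ± 0.185 SE, edgeR adjusted p = 0.0320), and at 100 µM replicate 3 alone was as low (-0.26, adjusted p = 0.321). Without this library and control replicate 1, HNF4A at 100 µM was at -0.20 (adjusted p = 0.0465). At 100 µM against control, 3 rose (CEBPD, STAT3 and SOCS3) and 4 fell (CEBPA, FOXA2, GATA4 and IL6ST). CEBPA, a C/EBP factor of mature hepatocytes, was at 65.31, 66.49 and 60.45 TPM in control libraries, 55.87, 57.01 and 50.82 TPM at 50 µM, and 32.71, 31.04 and 30.12 TPM at 100 µM. CEBPA fell 1.95-fold at 100 µM against control (-0.97 ± 0.0722, adjusted p = 0.000104) and 1.73-fold at 100 µM against 50 µM (-0.79 ± 0.0721, adjusted p = 0.00150), and both calls were kept in each of the 9 omissions. SOCS3, the feedback inhibitor of interleukin-6 signalling, rose 2.34-fold at 100 µM against control (1.23 ± 0.166, adjusted p = 0.00171). CEBPD, a C/EBP factor of the acute phase, had a log2 fold change of 1.51 ± 0.398 at 100 µM (adjusted p = 0.0264). CEBPD was at 35.01, 41.55 and 108.85 TPM at 100 µM, so replicate 3 was the high library, and without it the value was 0.75 (adjusted p = 0.00114); the CEBPD call was lost without control replicate 2 or 3, with an adjusted p of up to 0.0926.

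ZFHX3, ZBTB20 and ZHX2, which repress AFP in liver, did not pass in any comparison. Their log2 fold changes ran from -0.10 to 0.51 at the 2 doses against control. The HNF4A and GATA4 calls at 50 µM were lost without control replicate 2 or 3 or any 50 µM library, with an adjusted p of up to 0.141 for HNF4A and 0.123 for GATA4. The relation of these factors to the plasma protein genes was not tested.

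**Figure D5:**
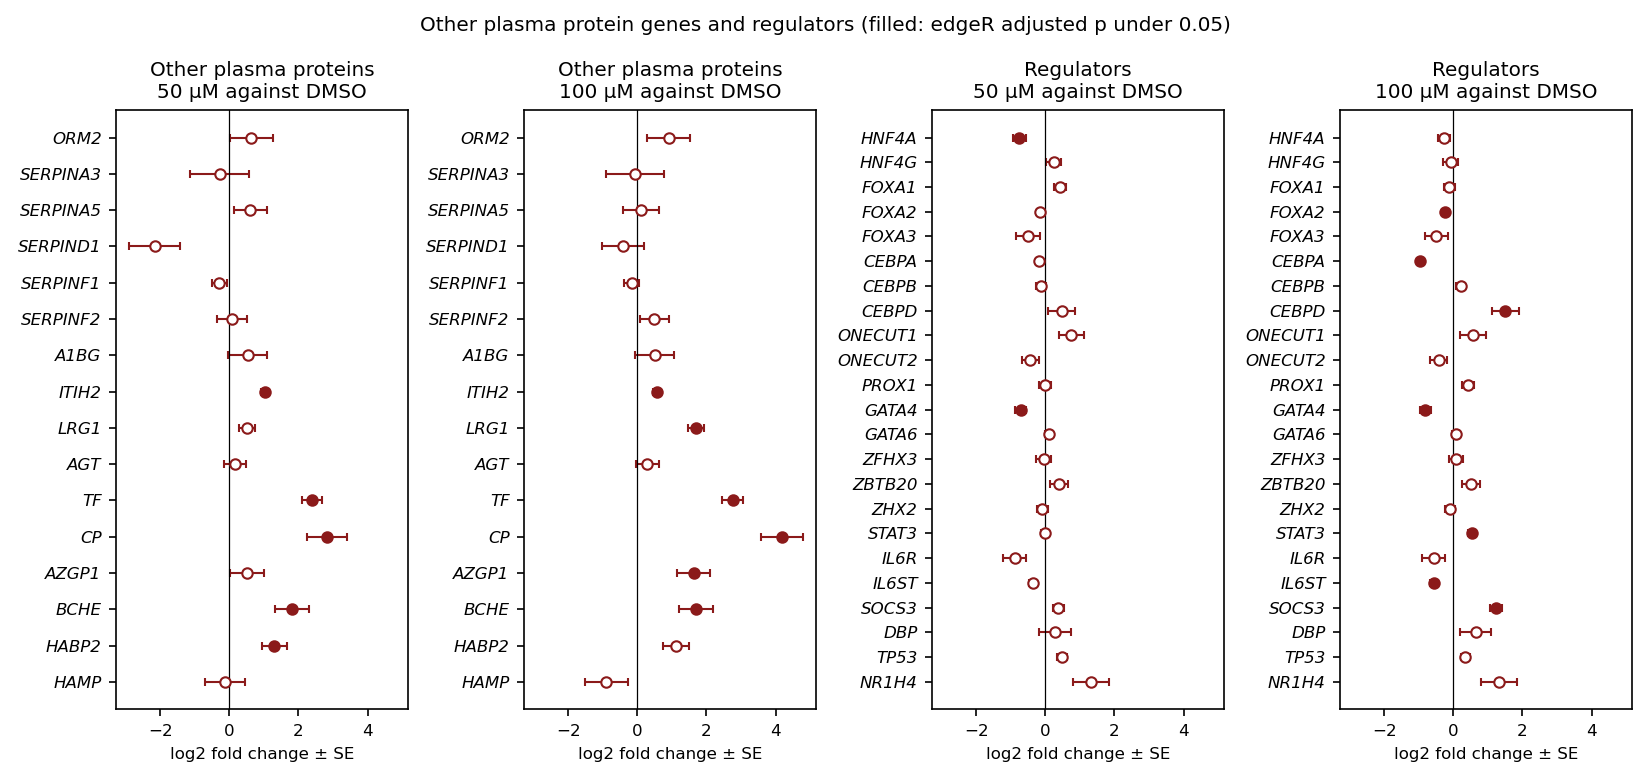
Log2 fold change ± SE (horizontal axis) of genes for other plasma proteins (left 2 panels) and of regulators (right 2 panels), at 50 µM and 100 µM against DMSO, from edgeR; filled points passed at an adjusted p under 0.05. All 5 and 6 called plasma protein genes lie right of 0, while called regulators lie on both sides, with CEBPA at -0.97 and CEBPD at 1.51 at 100 µM.

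Further lists concern what happens to plasma proteins outside transcription. Of 30 genes for export of secretory proteins from the endoplasmic reticulum, all were tested; 0 rose and 3 fell at 50 µM against control (SEC24A, SEC24B and SEC31A, coat proteins of the vesicles), and 4 rose and 2 fell at 100 µM against control. With 11.6% and 21% of all tested genes called at these doses, these counts are near the background. Each of the 3 calls at 50 µM was lost without control replicate 2 or 3 or any 50 µM library (edgeR adjusted p up to 0.116 for SEC24A, 0.119 for SEC24B and 0.0914 for SEC31A). Of 11 tested receptors and clearance genes, FCGRT, which encodes the receptor chain that rescues albumin from degradation, rose at both doses. FCGRT was at 61.08, 37.28 and 34.69 TPM in control libraries, 65.01, 76.61 and 74.23 TPM at 50 µM, and 76.30, 78.73 and 99.23 TPM at 100 µM. Its log2 fold change was 0.76 ± 0.209 SE at 50 µM (edgeR adjusted p = 0.0442) and 1.02 ± 0.209 at 100 µM (adjusted p = 0.00977). All quercetin libraries were above the control libraries, control replicate 1 being the highest of these, and the call at 50 µM was lost without control replicate 2 or 3, any 50 µM library or 100 µM replicate 2 (adjusted p up to 0.174). SPARC, an albumin-binding matrix protein, fell at both doses (log2 fold change -1.59 ± 0.258 at 50 µM, adjusted p = 0.0102, and -1.22 ± 0.252 at 100 µM, adjusted p = 0.00988), and the call at 50 µM was lost without control replicate 2 or 3 or 50 µM replicate 1 or 3 (up to 0.0657). LRP1, an endocytic receptor that also clears complexes of protease inhibitors, rose at 100 µM (1.38 ± 0.122, adjusted p = 0.000280). Of 15 tested genes of retinoid handling, 3 rose at 50 µM against control (RARB, DHRS3 and RDH11), and 1 rose and 1 fell at 100 µM (DHRS3 and RXRA). Over all tested genes, 11.6% were called at 50 µM and 21% at 100 µM. Each of these retinoid calls was lost in 2 to 7 of the 9 omissions of a library (edgeR adjusted p up to 0.168). Of 10 tested markers of fetal liver and liver cancer, AFP included, 1 rose and 1 fell at 50 µM (MDK and PEG10), and 3 rose at 100 µM (IGF2, SPINK1 and GOLM1). The MDK and PEG10 calls were lost without control replicate 2 or 3 or any 50 µM library, that of PEG10 also without 100 µM replicate 2 (edgeR adjusted p up to 0.118 for MDK and 0.180 for PEG10), and the GOLM1 call was lost without control replicate 2 or 3 (up to 0.0530). GPC3 and H19, often made beside AFP in liver cancer, were not analysed here.

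Markers of other cell types were compared over the same libraries. The summed hepatocyte list, which contains 4 of the members, was at 71.7 to 98.4 TPM in control libraries, 134 to 144 TPM at 50 µM, and 129 to 247 TPM at 100 µM. Its 12 tested genes did not move as 1 group: 3 rose (ALB, TF and FGB) and 3 fell (APOB, SERPINA1 and HNF4A) at 50 µM, and 6 rose (ALB, TTR, TF, AHSG, FGA and FGB) and APOB fell at 100 µM. TTR and AHSG passed the filter on low counts through quercetin libraries, and SERPINA1 through libraries outside 50 µM, where each was high. Their calls therefore add nothing to these counts. Of the 8 tested genes of the list that are not members, 2 rose and 2 fell at 50 µM. At 100 µM, 3 of them rose and 1 fell. Over all tested genes, 11.6% were called at 50 µM and 21% at 100 µM. APOB, the apolipoprotein of very-low-density lipoprotein, had a log2 fold change of -2.31 ± 0.180 SE at 50 µM (edgeR adjusted p = 0.000824) and -1.87 ± 0.175 at 100 µM (adjusted p = 0.000350). The red blood cell genes were at 0 to 0.38 TPM in all libraries. Of the fibroblast genes, COL1A1, COL1A2, COL3A1, PDGFRB and THY1 were at 0 to 0.26 TPM, and LUM, at 54.65 to 106 TPM, made up most of the summed list of 57.8 to 87.2 TPM in control, 66.2 to 73.6 TPM at 50 µM and 63.7 to 110 TPM at 100 µM. Of the immune genes, CD3E was at 0 to 0.08 TPM, and CD68, a lysosomal protein gene, made up nearly all of the summed list, which was 185 to 257 TPM in control, 164 to 181 TPM at 50 µM and 254 to 377 TPM at 100 µM. PTPRC, LYZ and CD14 of the immune list and DCN of the fibroblast list were at or below 4.82 TPM. Of the endothelial genes, CDH5 and VWF were at 0 to 1.18 TPM, and the summed list, most of it PECAM1, was 19.9 to 22.2 TPM in control, 10.2 to 11.9 TPM at 50 µM and 10.7 to 13.9 TPM at 100 µM. The bile duct list was at 1623 to 1819 TPM in control, 1644 to 1704 TPM at 50 µM and 1642 to 1713 TPM at 100 µM. The part of these markers in the plasma protein results was not tested.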

How the data were processed

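RNA-seq of 9 HCCLM3 libraries was used. Per the labels' protocols, RNA was extracted with Trizol, bound to oligo(dT) beads, fragmented, PCR-amplified and exposed to duplex-specific nuclease. That step depletes abundant transcripts and can compress differences between genes. The protocol speaks of tissue, and the sources used here give no strand setting. RSEM 1.2.12, Bowtie2 2.2.5, HISAT2 2.0.4 and the build GRCh38.p13 are named in the submitters' processing notes, without their roles.

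The authors deposited expected counts (estimated read counts per gene, not normalised) and TPM per library, which served for tests and for levels. The authors also deposited log2 fold changes with q-values from DESeq2, per the file headers; the log2 fold changes had the sign of quercetin over control, or of the higher over the lower dose, when checked against the group means. A further 18 per-sample columns were not used.

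Expected counts were rounded, and genes were kept by filterByExpr (minimum count 10, minimum total 15, share 0.7), which removed 4660 genes with 0.042% of the counts. TMM scaling, 1 fit of all 9 libraries with a term per group, and edgeR's robust quasi-likelihood F test (edgeR 4.0.16 in R 4.3.3, with limma 3.58.1; two-sided) followed, with Benjamini-Hochberg adjustment over 12832 genes and a threshold of 0.05. The common dispersion was 0.0206, a coefficient of variation of 14.4%. Standard errors were derived from F, as the size of the log2 fold change over the root of F. The script was tested on simulated data. Alternatives were DESeq2 1.42.0 (its size factors and its test), no filter, a minimum count of 50, fits of 2 groups, a replicate block, limma on log2(TPM + 1) and log2(TPM + 0.1), and omission of libraries; summing ORM1 and ORM2 and the omissions for genes outside the 10 were added after seeing the data.

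The 10 members, the lists and the motifs were chosen with earlier results of these data known, so their counts are descriptions. All 10 members are named; from each list, up to 3 called genes with the largest change and a mean of at least 1 CPM, the ORM and albumin family relatives, and the most alike gene of each member. Other list genes are named as the ones behind a count. ITIH2, the AFP repressors, the neighbours ANKRD17 and RASSF6, APOB and single cell type markers were chosen after their values were seen, and libraries were not left out for these. Results of some genes are not reported here.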

Additional observations from a re-analysis of the deposited data

How the results depend on the processing

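Over the 7 tested members and the alternatives run, 332 of 365 values kept their side of the threshold, 24 lost a call and 9 gained one. Only a called result can lose a call, and the 365 values include results that were not called. The share of kept values therefore does not tell how stable the calls were. Of the 332, 12 changed sign, all of them uncalled and at most 0.25 in size: AFP and ORM1 at 100 µM against control, and ALB at 100 µM against 50 µM. Of the main counts of called members (2 at 50 µM against control, 4 at 100 µM against control, 0 at 100 µM against 50 µM), the first became 1 with a minimum count of 50, under which fewer members could be tested, and 3 in the fit of those 2 groups alone, where AHSG passed (adjusted p = 0.0437); the second became 2 with that minimum and 2 in the fit of its 2 groups; and without control replicate 1 and 100 µM replicate 3 the counts were 3, 5 and 2. DESeq2 called 3, 4 and 0 members, AHSG being the added one at 50 µM (adjusted p = 0.0467). Leaving out 1 library in turn gave 0 to 3, 1 to 4 and 0 to 1 calls. The summed TPM of the 10 genes ranged from 17.6 to 18.9 in control, 23.4 to 25.7 at 50 µM and 23.2 to 27.0 at 100 µM under these omissions. Among values for the genes outside the 10, 143 lost a call, 57 gained one, 729 kept their side and 1 reversed: FGB between 100 µM and 50 µM was 0.14 (adjusted p = 0.903) with all libraries and -0.77 (adjusted p = 1.62e-08) without control replicate 1 and 100 µM replicate 3, with a range of -0.78 to 0.47 when 1 library was left out. The cause was not tested.

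With the replicate number as a block, the counts of called members were 2, 2 and 0, the second losing AHSG (adjusted p = 0.0585) and AMBP (0.0614). Deviations of same-numbered libraries from their group means correlated from -0.521 to 0.352. Differently numbered libraries were not compared, so these values do not tell whether the numbers pair the libraries. Counts under about 50 per library in TTR, AHSG, SERPINA1 and ORM1, and under 10 in RBP4, HP and HPX, limit what could be detected. The control libraries of ALB were also under 50 counts, so its fold changes against control rest on a low baseline.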

Other observations

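The genes most alike to single members were found by Pearson's r of log2 CPM over the 9 libraries, as a description; the libraries come from 3 groups with different levels, so r carries the group differences. MYO7A was closest to AHSG (0.959), JOSD2 to TTR (0.974), EPS8L3 to SERPINA1 (0.966), PMVK, an enzyme of the mevalonate pathway, to AMBP (0.949), the read-through transcript DUS4L-BCAP29 to ORM1 (0.922), and AURKB, a mitotic kinase, to AFP (0.916). Among the members themselves, the largest r was 0.859, between ALB and AHSG, and TTR and AMBP had -0.728.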
